A study of Mus musculus with 33 samples.

Results

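The 3 nuclear lamin genes of the mouse, Lmnb2, Lmnb1 and Lmna, were followed through 33 single heart muscle cells, taken as their 3 rows among the 20728 genes of a count table. The cells came from the ventricles of mice that carry the mAG-hGem transgene of the FUCCI system, an Azami green fluorescent protein fused to geminin, a protein that builds up from S phase to mitosis and is broken down in G1. Every mouse carried the transgene, so no group was free of it, and for the promoter that drives it and the number of animals the sources used here give nothing. Hearts were taken at embryonic day 14.5 (E14.5) or postnatal day 19 (P19), and digested cells were sorted by green fluorescence into 10 positive and 11 negative cells at E14.5 and 8 positive and 4 negative cells at P19. A cell was sequenced after antisense RNA amplification if PCR had found Tnnt2, the cardiac troponin T gene, and had not found Pdgfrb, a receptor gene of mural cells and fibroblasts. A cell number is its place in its group by sample order.

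Lamins are intermediate filament proteins that form a meshwork under the inner nuclear membrane. The B-type lamins B1 and B2, each from a gene of its own, keep a farnesyl lipid at their tail and stay close to the membrane, whereas the A-type lamins A and C are splice forms of Lmna, and lamin A loses its farnesylated tail when it matures. The meshwork is taken apart when kinases phosphorylate lamins at the start of mitosis and is rebuilt around the daughter nuclei, and A-type lamins are known to be more abundant in stiff, differentiated tissues such as the heart. A count per gene does not separate lamin A from lamin C.

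On the GRCm38 assembly with GENCODE M21 annotation, Lmnb2 (ENSMUSG00000062075.13) lies on the minus strand of chromosome 10 from 80901203 to 80918245. Lmna (ENSMUSG00000028063.15) lies on the minus strand of chromosome 3 from 88480147 to 88509956. No other annotated gene overlaps either of them or Lmnb1, so reads were not shared with a neighbour by position. Of the 3 lamins 2 matched the RefSeq promoter table. The stretches before a start of Lmnb2 and a start of Lmna are shown because these 2 genes stood in opposite directions between the E14.5 groups. Both are 250 bases long, on the minus strand of GRCm38.p6, from RefSeq, at chr10:80918246-80918495 and chr3:88503353-88503602. They read 5′ to 3′ along the gene, with each CG dinucleotide in capitals:
Lmnb2: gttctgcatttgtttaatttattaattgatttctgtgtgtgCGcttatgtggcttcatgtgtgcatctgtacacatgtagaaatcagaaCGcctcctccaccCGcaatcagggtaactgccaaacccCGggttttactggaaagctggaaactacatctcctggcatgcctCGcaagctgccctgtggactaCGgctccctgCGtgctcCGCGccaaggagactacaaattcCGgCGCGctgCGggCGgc
Lmna: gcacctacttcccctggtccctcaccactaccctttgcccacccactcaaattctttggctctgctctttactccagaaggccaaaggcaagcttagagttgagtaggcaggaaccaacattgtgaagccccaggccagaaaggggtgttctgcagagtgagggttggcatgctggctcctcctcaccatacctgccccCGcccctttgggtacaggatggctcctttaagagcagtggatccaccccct
The stretch before Lmnb2 held 14 CG dinucleotides at 52.8% G and C, and 70.6% of 32851 RefSeq promoter windows of the same length held fewer. The stretch before this start of Lmna, which lies inside the span of the gene and not at its outer end, held 1 CG at 56.4% G and C, with 7.87% of windows holding fewer. The median over all windows was 6 CG dinucleotides. A GC box, searched as GGGCGG on both strands, began 7 bases before the start of Lmnb2 on the strand of the gene and lay on the other strand 52 bases before that of Lmna, and 32.7% of windows held these letters. The letters TTTGAA and TTCGAA of the cell cycle homology region (in 16.0% and 1.34% of windows), CCAAT (33.8%), the E2F forms TTTCGCGC, TTTGGCGC and TTTCCCGC (0.256%, 0.417% and 0.895%) and TATAAA (12.4%) were in neither stretch on either strand. Each gene had another RefSeq start, not shown. The stretch before that of Lmnb2 held 5 CG dinucleotides and no GC box. Before that of Lmna there were 4, with CCAAT 131 bases before the start. These are matches of letters in a window and describe no binding.

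The cells had 7.80 to 60.2 M counts in all, and 5924 to 11246 genes had a read. All 10 cardiomyocyte markers searched (Tnnt2, Myh6, Myh7, Actn2, Tnni3, Ryr2, Ttn, Myl2, Myl3 and Nkx2-5) had reads in every cell, and their sum was lowest at 6340 CPM (the count scaled to a total of 1 M), in an E14.5 positive cell. Tnnt2 was part of the PCR check, so its reads do not test identity. Fibroblast markers reached 50946 CPM in E14.5 negative cell 5, with 8 of 8 read, against at most 16.0 CPM in the other E14.5 cells. Endothelial markers reached 164 to 1903 CPM in P19 positive cells 1, 4, 5, 6 and 8 and 1101 CPM in P19 negative cell 1, against at most 2.38 CPM in the remaining 6 P19 cells. At E14.5 they reached 179 CPM in negative cell 4 and 99.6 CPM in positive cell 8, with 2 of 8 read in each. Macrophage markers reached 248 CPM in E14.5 positive cell 8 and 229 CPM in E14.5 negative cell 6, with 1 of 7 read in each. Mural markers summed to 66.7 CPM or more in every cell. Pdgfrb stood at 10.9 CPM in P19 positive cell 8 and at 1.72 CPM in E14.5 positive cell 9, and 30 of 33 cells had none. E14.5 negative cells 1 and 3 had the fewest genes with a read, 5924 and 5984. Since a sample is a single cell and the labels give no animal, litter or date, a group was treated as 1 sample and groups were not tested against each other. Intervals of levels and ratios cover counting error only, and PCR copies of a molecule count more than once in them. Of the counts above 0, 60.1% were even numbers, and of the counts of 1 to 10, 81.3% were. Whether 1 fragment often gave 2 counts was not tested, and the counting intervals would then be too narrow. Intervals of shares of cells take the cells as independent draws, which the labels cannot show them to be.

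Lmnb2, the gene of lamin B2, was read in all 10 E14.5 positive cells and in 7 of the other 23 cells. In E14.5 positive cells its level ran from 0.191 CPM in cell 9 (8 counts) through a median of 2.39 CPM to 26.6 CPM in cell 4 (318 counts). Cells 4, 8 and 10 stood highest, all at or above 11.9 CPM, and cell 8 alone gave 42.3% of the 1705 counts of the group. In E14.5 negative cells the level was 1.77 CPM in cell 11 (48 counts), 0.146 CPM in cell 8 (6 counts), 0.109 CPM in cell 9 (4 counts), 0.0501 CPM in cell 4 (1 count) and 0 in the other 7. The 2 groups overlapped through cell 11 alone: the other 10 negative cells lay below every positive cell, and 6 of 10 positive cells lay above every negative cell. In the 7 negative cells without a read, 3 counts would have been 0.0545 to 0.384 CPM, so a level like that of positive cell 9 would have given under 3 counts in some of them.

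At P19 Lmnb2 was close to absent from both groups. P19 positive cell 3 held 78 counts (2.16 CPM), P19 positive cell 4 held 1 count (0.0543 CPM) and the other 6 positive cells held none. Among P19 negative cells, cell 1 held 58 counts (1.45 CPM) and cells 2, 3 and 4 held none. In these 9 cells without a read, 3 counts would have been 0.0748 to 0.227 CPM. P19 negative cell 1 was also the negative cell with endothelial transcripts, 8 of 8 markers at a sum of 1101 CPM against 0 to 1.09 CPM in the other 3, whereas P19 positive cell 3 had 2.38 CPM with Pecam1, Tek, Emcn and Egfl7 at 0. The part of such cells in the level of Lmnb2 was not tested.

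Lmnb1, the gene of lamin B1 (ENSMUSG00000024590.8, plus strand of chromosome 18 from 56707813 to 56753424 of GRCm38), was also read in all 10 E14.5 positive cells, at 0.501 CPM in cell 4, a median of 18.3 CPM and 95.5 CPM in cell 9. Positive cells 1, 5 and 9, at 62.8, 68.3 and 95.5 CPM, stood above every other cell of the study, and cell 9 gave 51.1% of the counts of the group. E14.5 negative cells ran from 0 in cells 1, 3 and 10 through a median of 4.52 CPM to 47.1 CPM in cell 5. These groups overlapped widely, with 7 of 10 positive cells inside the range of the negative cells, but 4 negative cells (1, 3, 10 and 11) lay below every positive cell. The highest negative cell, cell 5, was the one rich in fibroblast markers, and the part of these transcripts in its Lmnb1 level was not tested.

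At P19 Lmnb1 was read in 3 of 8 positive cells, with 158 counts (4.22 CPM) in cell 6, 52 counts (1.30 CPM) in cell 8 and 2 counts (0.0553 CPM) in cell 3. None of the 4 P19 negative cells had an Lmnb1 read, where 3 counts would have been 0.0749 to 0.128 CPM per cell. Cells 6 and 8, which gave 210 of the 212 counts of the positive group, were among the 5 P19 positive cells with at least 100 CPM of Fabp4, an endothelial fatty acid carrier gene. Among the 3 positive cells below that level the Lmnb1 counts were 0, 2 and 0.

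Lmna, the gene of lamins A and C, was the lamin read in most cells, 29 of 33, and in all 12 P19 cells. In E14.5 positive cells it ran from 0 in cells 3 and 8 through a median of 4.21 CPM to 27.4 CPM in cell 10, with cells 1 and 2 at 25.8 and 21.7 CPM. Cell 8 had the highest total of the study, so 3 counts there would have been 0.0498 CPM, and it still held no Lmna read beside 721 counts of Lmnb2. In E14.5 negative cells Lmna was at 0 in cells 1 and 3, had a median of 8.13 CPM and reached 69.1 CPM in cell 8. The groups overlapped, with negative cells 5, 6 and 8 above every positive cell.

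P19 positive cells held 11.7 CPM of Lmna in cell 6, a median of 23.7 CPM and 70.0 CPM in cell 5. P19 negative cells 1 to 4 held 32.3, 66.5, 60.9 and 85.6 CPM. Of the 8 positive cells 5 lay below every negative cell, and negative cell 4 lay above every positive cell. The order of the group medians was P19 negative, P19 positive, E14.5 negative and E14.5 positive, at 63.7, 23.7, 8.13 and 4.21 CPM. Each pair of neighbours in that order overlapped, so no step between them separated all cells of 2 groups. For Lmnb1 the order was E14.5 positive, then E14.5 negative, then both P19 groups at a median of 0, and for Lmnb2 the 3 groups other than E14.5 positive all had a median of 0.

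**Figure D1:**
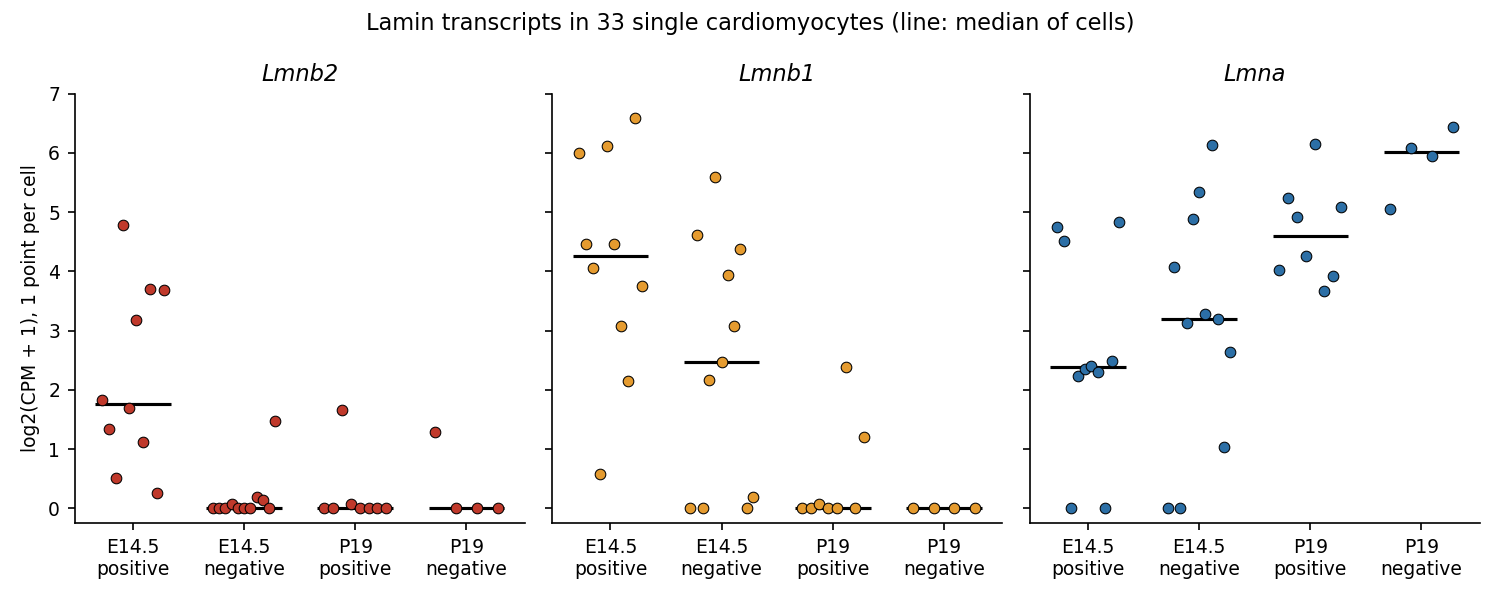
Level of Lmnb2, Lmnb1 and Lmna in each of the 33 cells as log2(CPM + 1), with 1 point per cell and a line at the median of each group. All 10 E14.5 positive cells lie above 0 for Lmnb2 and Lmnb1, most P19 cells lie at 0 for both, and all 12 P19 cells lie above 0 for Lmna.

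Reads of the 3 genes were then set against each other within each cell. All 3 lamins had at least 1 count in 8 of 10 E14.5 positive cells (80.0%, exact Clopper-Pearson 95% interval 44.4% to 97.5%), 4 of 11 E14.5 negative cells (36.4%, 10.9% to 69.2%), 1 of 8 P19 positive cells (12.5%, 0.316% to 52.7%) and 0 of 4 P19 negative cells (up to 60.2%). The other 2 E14.5 positive cells, 3 and 8, had both B-type lamins and no Lmna. E14.5 negative cells split into 4 with all 3, 4 with Lmnb1 and Lmna, 1 with Lmna alone (cell 10) and 2 with no lamin read (cells 1 and 3). Those 2 were the cells with the fewest genes read and with totals of 7.80 and 12.3 M.

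At E14.5 every cell with an Lmnb2 read also had Lmnb1, 14 of 14, but 4 of the 18 cells with Lmnb1 lacked Lmnb2. Of the 14 cells 10 were positive cells, which all had both. Among negative cells Lmnb1 was read in 4 of 4 cells with Lmnb2 and in 4 of the 7 without it. Those 7 include cells 1 and 3, which had no lamin read. At P19 each B-type lamin was read in few cells, Lmnb2 in 3 and Lmnb1 in 3, and P19 positive cell 3 alone had both, with Lmnb1 at 2 counts. Lmnb1 was read in 1 of 3 P19 cells with Lmnb2 and in 2 of 9 without it. Lmna was the only lamin read in 4 of 8 P19 positive and 3 of 4 P19 negative cells. Over all 33 cells, no cell had Lmnb2 alone or Lmnb1 alone.

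Co-detection among E14.5 negative and P19 positive cells rested on few reads. With 5 counts asked of each gene, all 3 lamins met in 8 of 10 positive and 1 of 11 negative cells at E14.5 and in 0 of 8 and 0 of 4 at P19. With every cell thinned to 7.80 M counts these numbers were 8, 2, 0 and 0. At 1 CPM they were 6, 0, 0 and 0, so the E14.5 positive group led under each rule.

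**Figure D2:**
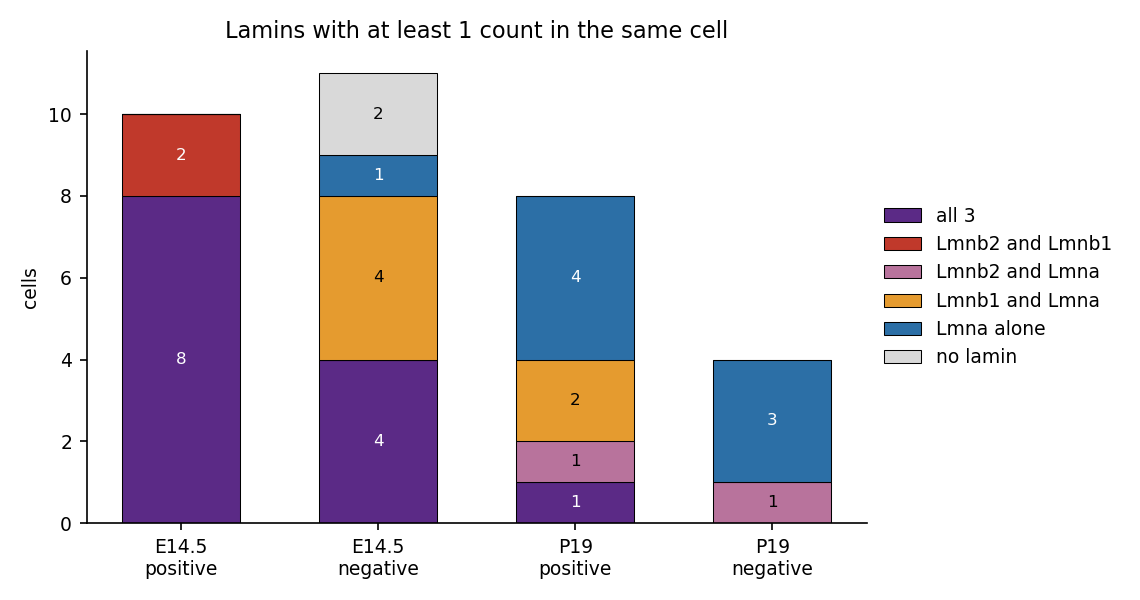
Number of cells (vertical axis) in each of the 4 groups by which lamins had at least 1 count. The bar of E14.5 positive cells holds 8 cells with all 3 lamins and 2 with both B-type lamins, and the P19 bars are led by Lmna alone, in 4 and 3 cells.

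Shares of cells with a read were compared with those of all genes read in both groups. Lmnb2 was read in 100% of E14.5 positive and 36.4% of negative cells, a difference of 63.6 percentage points, and 2.46% of 12421 genes were higher in positive cells by at least 50 points. Lmnb1 differed by 27.3 points and Lmna by -1.82 points. Between the positive groups, Lmnb2 was 75 points and Lmnb1 62.5 points less often read at P19, a size of difference met by 4.44% of 11687 genes in that direction at 50 points or more. Lmna was 20 points more often read at P19.

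Levels of different genes were compared per kilobase of annotated exon, 4286 bases for Lmnb2, 2962 for Lmnb1 and 5838 for Lmna. In the summed counts of E14.5 positive cells Lmnb1 was at 10.6, Lmnb2 at 1.60 and Lmna at 1.44 CPM per kb, so that Lmnb1 made up 77.7%, Lmnb2 11.7% and Lmna 10.6% of the lamin sum. In E14.5 negative cells the shares were 54.5% for Lmnb1, 44.9% for Lmna and 0.602% for Lmnb2. Lmna took 91.2% of the sum in P19 positive and 99.0% in P19 negative cells. The sum of the 3 lamins was 13.6 and 7.19 CPM per kb in positive and negative cells at E14.5, and 5.0 and 10.2 at P19, so the make-up differed by more than the sum did. Dividing by the longest transcript in place of all exons put Lmna above Lmnb2 in E14.5 positive cells (2.13 against 1.94 CPM per kb) and above Lmnb1 in E14.5 negative cells (4.77 against 4.08). Without division by length Lmna was also above Lmnb2 in the former (8.41 against 6.84 CPM) and above Lmnb1 in the latter (18.8 against 11.6). Whether reads of these amplified libraries spread over the whole exon length was not tested, so the order of genes per kb is uncertain.

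Single cells departed from these sums. Lmnb1 exceeded Lmna per kb in 8 of 10 E14.5 positive cells, and in 4 of 11 E14.5 negative cells with 5 the other way and 2 equal at 0. Lmnb2 exceeded Lmnb1 in 2 E14.5 positive cells: in cell 4 Lmnb2 made up 88.6% of the lamin level per kb, and in cell 8 it made up 70.8%. In positive cell 9, at the other end, Lmnb1 made up 97.5% and Lmnb2 0.135%. Lmna exceeded both B-type lamins in all 12 P19 cells, although in P19 positive cell 6 Lmnb1 reached 41.7%.

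**Figure D3:**
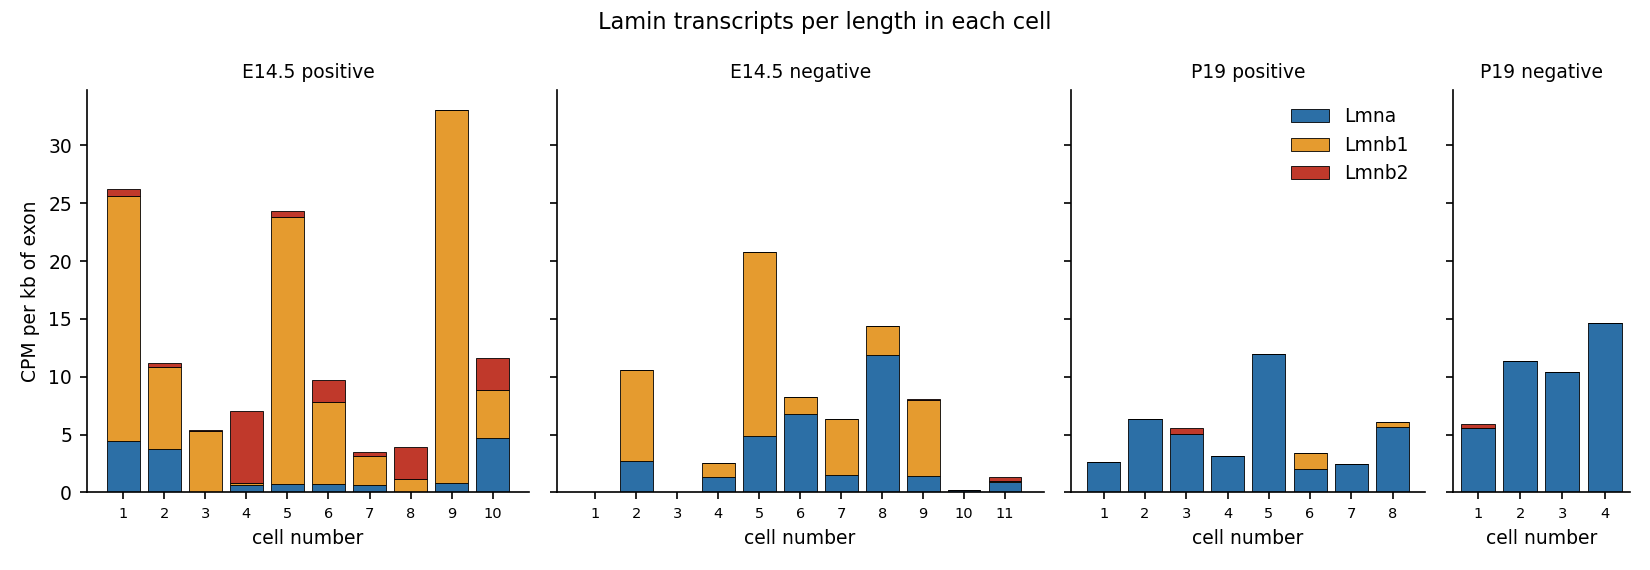
CPM per kb of exon (vertical axis) of the 3 lamins, stacked for each cell (horizontal axis) in the 4 groups. Lmnb1 forms most of the bar in most E14.5 positive cells, Lmnb2 does so in cells 4 and 8, and Lmna forms the largest part of each P19 bar, with 41.7% Lmnb1 in P19 positive cell 6.

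Lmnb2 was then set beside the cell cycle transcripts of each cell. The 4 negative cells with an Lmnb2 read (4, 8, 9 and 11) had the 4 highest sums of the S phase list, at 3170, 16526, 3737 and 3163 CPM, and the 7 without ran from 480 to 1818 CPM. Spearman's rho between Lmnb2 and that sum was 0.80 over the 11 cells and 0.71 without the 2 cells farthest from the median of the sum, and 0.762% of 9581 genes had a rho as high. Pearson's r of the same 2 measures as log2(CPM + 1) was only 0.32. Of the 24 S phase genes 22 had enough reads there, and all 22 had a rho above 0 with Lmnb2 (median 0.64), against 62.9% of all genes. All 15 measured G2/M genes did so too (median 0.43), so a rho above 0 was not particular to the S phase list. Lmnb2 also ran with Gmnn, the gene of geminin (rho 0.77, Pearson's r 0.44). The points share a group, libraries differ in depth, and rho with the number of genes read was 0.62, so these are descriptions of 11 cells. Lmnb2 had 1 to 48 counts in the 4 cells.

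Among the 10 E14.5 positive cells, all of which had Lmnb2 reads, rho with the S phase sum was 0.27 and became -0.29 without the 2 farthest cells, and Pearson's r was 0.48. Of the 23 S phase genes measured, 22 had a rho above 0 with Lmnb2 (median 0.31). Of the 25 G2/M genes 5 had a rho above 0 with Lmnb2 (median -0.19), and 52.1% of all genes did. Cell 4, the highest for Lmnb2, had the highest S phase sum of its group (14424 CPM) and a G2/M sum of 4065 CPM, whereas cells 8 and 10 had G2/M sums of 15763 and 15459 CPM. Lmnb2 and Lmnb1 ran against each other in these cells, with rho -0.58 and Pearson's r -0.69, a rho as low as in 2.25% of 10092 genes. Without the 2 cells farthest in Lmnb1 it was -0.48, and without the 2 farthest in Lmnb2 -0.17, so it rested largely on cells 4 and 8, the highest for Lmnb2. In E14.5 negative cells Lmnb1 and Lmna ran together (Pearson's r 0.73, rho 0.76, as high as in 0.906% of 9602 genes), where cells 1 and 3 had neither.

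**Figure D4:**
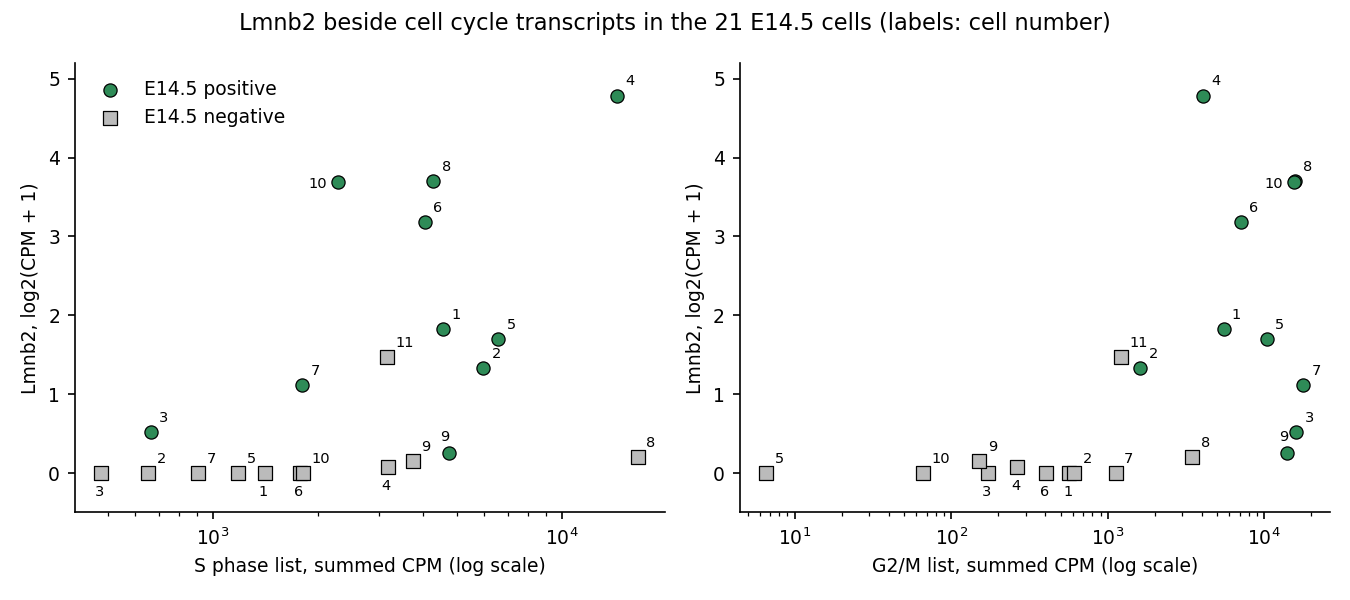
Lmnb2 as log2(CPM + 1) against the summed CPM of S phase genes (left) and of G2/M genes (right) on log scales, for the 10 E14.5 positive (circles) and 11 E14.5 negative (squares) cells, labelled by cell number. The 4 negative cells above 0 lie to the right of the other 7 on the S phase axis, and positive cell 4, the highest for Lmnb2, lies farthest right of the positive cells there.

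The comparison of positive with negative cells at E14.5 asked how the lamins differ with the reporter of cycling. Lmnb2 was higher in the summed counts of positive cells by a log2 ratio of 5.21 (4.83 to 5.61), Lmnb1 by 1.44 (1.38 to 1.49), and Lmna was lower at -1.16 (-1.24 to -1.09). Of 13611 genes, 24.9% were at least 2-fold higher and 29.1% at least 2-fold lower, so a ratio past 2-fold was common, and the median of all genes was -0.12. Every cell left out in turn kept the sign of the 3 ratios, from 4.81 to 7.50 for Lmnb2, 0.67 to 2.0 for Lmnb1 and -1.83 to -0.44 for Lmna. Lmnb2 reached 7.50 without negative cell 11, Lmnb1 stood below 2-fold without positive cell 9 (0.67) and Lmna was nearer 0 without negative cell 8 (-0.44). Without negative cells 5 and 8 together, the ratio of Lmnb1 was 1.99 and that of Lmna was -0.14.

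Titles of E14.5 cells carry numbers of 1 to 10 or of 21 to 30, and no label says what these mean. Within the lower numbers Lmnb2 was at 6.23 CPM over 6 positive cells and 0.0116 CPM over 5 negative ones, and within the higher at 7.16 CPM over 4 positive cells and 0.250 CPM over 6 negative ones. Lmnb1 was at 35.2 against 21.7 CPM and at 29.4 against 7.86 CPM. Lmna was at 9.89 against 14.8 CPM and at 7.65 against 20.3 CPM. The sign of each lamin was thus the same in both sets, with a log2 ratio of Lmnb1 of 0.70 in the first and 1.91 in the second.

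At P19 the reporter groups differed in the summed counts of Lmna and Lmnb1. Lmna was lower in positive cells by a log2 ratio of -1.15 (-1.20 to -1.10), from -1.42 to -0.94 with each cell left out. With 3 counts taken for the negative group, Lmnb1 was 43.6-fold higher in positive cells, a log2 ratio of 5.45. The interval of that ratio began at 5.14, and the ratio was 3.76 without P19 positive cell 6, which gave 74.5% of the Lmnb1 counts. Only 3 of 8 positive and 0 of 4 negative cells had an Lmnb1 read, and both medians were 0. The intervals of these shares overlapped, at 8.52% to 75.5% and up to 60.2%. As the difference of mean log2(CPM + 1), Lmnb1 was at 0.46. For Lmnb2 the log2 ratio was -0.25 with an interval of -0.76 to 0.26. It was -6.28 without P19 positive cell 3, and 3.47 without P19 negative cell 1, from 3 counts taken for the negative group. Of 12213 genes 29.7% were at least 2-fold higher and 19.4% at least 2-fold lower in positive cells. With the P19 cells of at least 100 CPM of Fabp4 left out, 3 cells stayed in each group: Lmna was lower at -1.51, Lmnb2 had a bound of 4.83 from cell 3 alone, and no ratio could be formed for Lmnb1.

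Between positive cells of both ages, both B-type lamins were lower at P19 and Lmna was higher. The log2 ratios of P19 over E14.5 positive cells were -4.15 (-4.50 to -3.83) for Lmnb2, -4.93 (-5.13 to -4.73) for Lmnb1 and 1.66 (1.59 to 1.73) for Lmna. Genes at least 2-fold lower were 46.5% of 13492 and those as much higher 25.3%, with a median of all genes of -0.77. Leaving out each cell gave -10.18 to -3.76, -6.61 to -4.16 and 1.26 to 2.32 in the order above, with the lowest values without P19 positive cell 3 for Lmnb2 and without P19 positive cell 6 for Lmnb1. Of the P19 positive cells 7 of 8 lay below every E14.5 positive cell for Lmnb2 and 6 of 8 for Lmnb1, and 4 of 8 lay above every one for Lmna. Without the cells of high Fabp4 the ratios were -2.79, -10.27 and 1.57.

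Between negative cells of both ages, Lmnb1 and Lmna differed in the same directions as in positive cells. Lmna was higher at P19 by a log2 ratio of 1.65 (1.60 to 1.69; 1.39 to 2.37 with each cell left out), and 9 of 11 E14.5 negative cells lay below every P19 negative cell. With 3 counts taken for the P19 group, Lmnb1 was 489-fold lower at P19, a log2 ratio of -8.93 with an interval that reached up to -8.64. For Lmnb2 the ratio of 1.31 (0.76 to 1.85) rested on P19 negative cell 1, which held all 58 counts. Without that cell Lmnb2 was lower at P19, with a log2 ratio of -2.42 from 3 counts taken for the P19 group. Of 13201 genes 22.3% were at least 2-fold higher and 50.9% at least 2-fold lower at P19, with a median of -1.07. The 2 comparisons of positive with negative cells and the 2 between ages share their groups, so the 4 sets of ratios are not separate evidence. Scaling by TMM factors moved the median of all genes by 0.34 and 0.40 in the 2 comparisons between ages, and the lamin ratios with it.

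**Figure D5:**
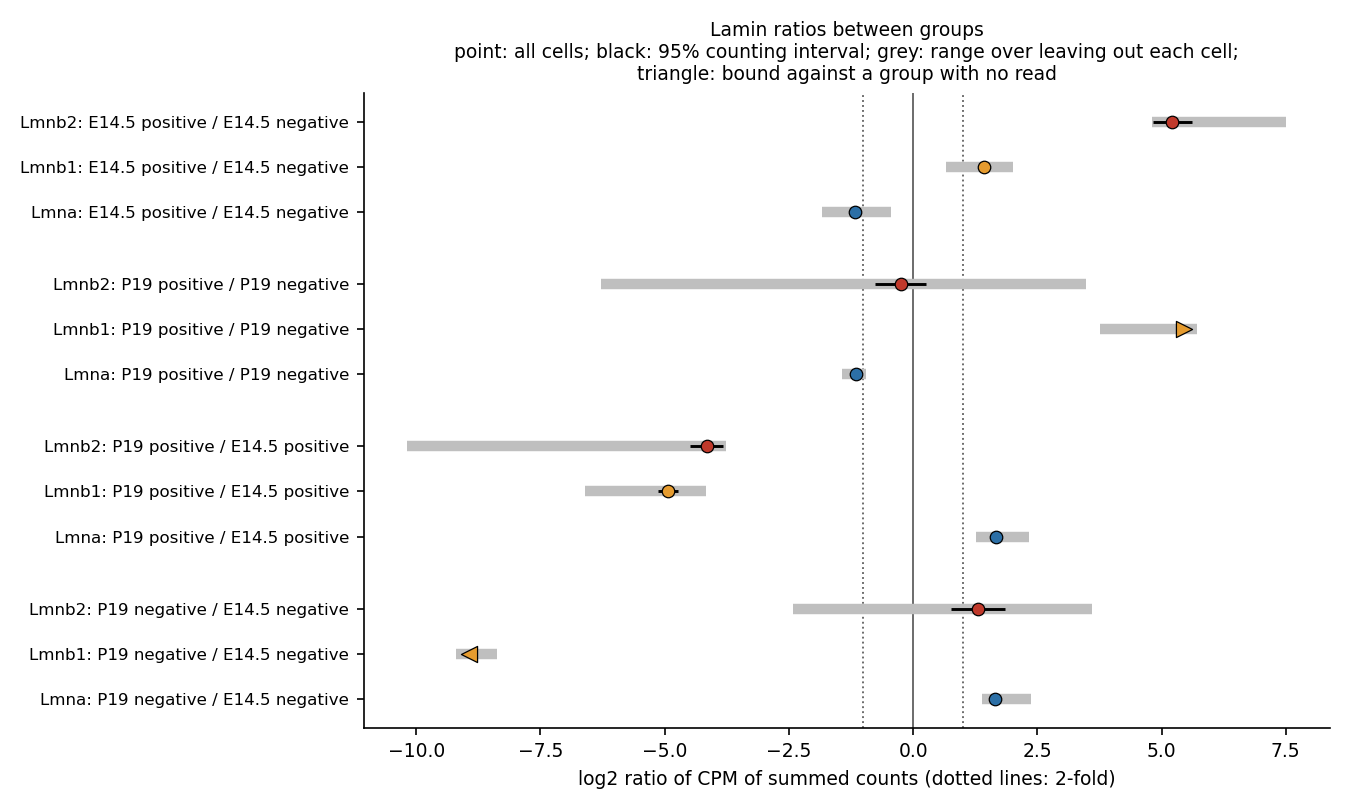
Log2 ratio of summed CPM (horizontal axis) for each lamin in the 4 comparisons, with the 95% counting interval in black, the range over leaving out each cell in grey and triangles for bounds against a group with no read. The ratio of Lmnb2 crosses 0 in both comparisons that involve P19 negative cells, and the other 10 ranges stay on 1 side of 0.

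Genes that work with the lamina were described by lists, each set beside the shares of all genes given above. Of 15 genes listed as lamina partners, most encode proteins of the inner nuclear membrane or their ligands. E14.5 positive cells exceeded negative cells 2-fold or more for 5 of the 15 and fell short by as much for 2 (median log2 ratio 0.51). Over all genes these shares were 24.9% and 29.1%. Tmpo, which encodes the lamin-binding LAP2 proteins, was at 1475 against 692 CPM there, and at 25.1 and 22.2 CPM in P19 positive and negative cells. Mcph1, the gene of microcephalin, was at 92.0 against 11.3 CPM, and Lemd2, an inner membrane protein of the LEM family, stood the other way at 1.18 against 6.84 CPM. Mlip, which encodes a muscle protein that binds lamin A and was found under an older symbol, was at 171, 265, 151 and 123 CPM in the 4 groups, given from here on with E14.5 before P19 and positive before negative. Between positive cells of both ages the P19 level was down 2-fold or more for 6 of the 15 and up for 2, where 46.5% of all genes were as far down and 25.3% as far up. The list had a median of -0.33, beside -0.77 for all genes. With TMM factors these medians became 0.01 and -0.43.

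The LINC complex ties the lamina to the cytoskeleton, and 5 of 6 genes of its list were found. At E14.5 there were 2 with a positive level 2-fold or more above the negative one and none below (median 0.63). Of all genes 24.9% were as far above and 29.1% as far below. The 2 were Sun2, a SUN protein of the inner membrane, at 34.3 against 6.98 CPM and Syne2, the gene of nesprin 2, at 131 against 36.1 CPM. Sun1 was at 136 against 88.3 CPM and Syne1, the gene of nesprin 1, at 52.5 against 70.2 CPM. At P19 the level of Syne2 was 3.70 CPM with the reporter and 0.901 CPM without it, whereas Syne1 was at 45.2 and 43.3 CPM. Tor1a, the gene of torsin A, stayed between 4.10 and 9.29 CPM in the 4 groups.

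Enzymes that modify the tail of lamins gave 1 gene at least 2-fold higher and 1 at least 2-fold lower of 6 at E14.5 (median -0.07). The shares of all genes were 24.9% and 29.1%. Fnta, the shared alpha subunit of farnesyl and geranylgeranyl transferases, was the most abundant, at 125, 135, 191 and 277 CPM in the 4 groups, and Fntb, the farnesyl transferase beta subunit, was at 2.85, 1.86, 3.65 and 2.24 CPM. Zmpste24, the protease that removes the tail of prelamin A, was at 8.38 and 8.61 CPM in E14.5 positive and negative cells and at 21.6 and 8.93 CPM at P19. Its log2 ratio between P19 positive and negative cells was 1.27 (1.18 to 1.37), opposite in sign to that of Lmna. Rce1, another protease of this step, was at 2.22, 5.23, 2.30 and 3.11 CPM, and Icmt, the methyltransferase that follows, at 0.650, 0.101, 3.61 and 0.348 CPM. Between positive cells of both ages, this list had a median of 0.55, with 2 of 6 up at P19 by 2-fold or more and none down, against 25.3% and 46.5% of all genes. Pggt1b, the geranylgeranyl transferase beta subunit, was at 17.8, 32.7, 25.1 and 44.1 CPM in the 4 groups.

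Genes of the disassembly and rebuilding of the lamina at mitosis numbered 12. E14.5 positive cells were 2-fold or more above negative cells for 7 of them and below for none (median 1.29). In that comparison 24.9% of all genes were as far above and 29.1% as far below. Cdk1, the kinase that phosphorylates lamins at mitotic entry, was at 1971 against 140 CPM, and its partner Ccnb1, cyclin B1, at 625 against 0.195 CPM. Cdca2, which brings phosphatase 1 to chromatin, was at 131 against 1.31 CPM with reads in 10 of 10 positive and 1 of 11 negative cells. Ppp2ca, a catalytic subunit of phosphatase 2A, stood at 647 against 652 CPM. No P19 cell had a read of Cdk1 or Ccnb1, in reporter positive cells as in negative ones, so P19 cells sorted as reporter positive held no read of this kinase or its cyclin.

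Pore and transport genes were also compared, since lamins enter the nucleus through pores. At E14.5 the positive cells were 2-fold or more above the negative cells for 12 of 26 pore genes and below for 1 (median 0.75). Among all genes 24.9% were as far above and 29.1% as far below. Nup35 was at 86.4 against 10.3 CPM and Aaas, which encodes the nucleoporin aladin, at 5.66 against 0.688 CPM, whereas Seh1l was at 313 against 229 CPM and Tpr, of the nuclear basket, at 157 against 208 CPM. Of the 15 transport genes 6 were 2-fold or more above and 3 below by as much (median 0.65). Kpna2, an importin alpha, was at 10.6 against 0.345 CPM and Rcc1, the exchange factor of Ran, at 57.9 against 5.69 CPM. Cse1l, the export receptor of importin alpha, was at 1187 against 778 CPM. Ran itself was at 2796 against 1419 CPM, and at 417 and 345 CPM in P19 positive and negative cells. Between negative cells of both ages 18 of 26 pore genes and 9 of 15 transport genes were at least 2-fold lower at P19, with medians of -2.07 and -1.44. In that comparison 50.9% of all genes were as far down, with a median of -1.07, so the count of transport genes lay near the general share.

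The cell cycle lists framed these values. Each of the 25 G2/M genes was 2-fold or more above the negative cells in E14.5 positive cells (median 4.80). The S phase list of 24 had 6 that were and 5 in the other direction (median -0.20). With 24.9% of all genes as far above and 29.1% as far below, the S phase counts lay near or below the general shares. At P19 the 25 G2/M genes summed to 145 CPM with the reporter and 137 CPM without it, against 12918 and 847 CPM at E14.5. Only 14 of them had enough counts for a P19 ratio, 5 of these as bounds. Of the 14, 8 were 2-fold or more higher with the reporter and 2 lower (median 1.15). Among all genes in that comparison 29.7% were as far above and 19.4% as far below, with a median of 0.16. Smc4, a condensin subunit, was at 1650 against 182 CPM in E14.5 positive and negative cells. Hmmr, a spindle gene, was at 280 against 0.0126 CPM and Aurka, the gene of Aurora kinase A, at 49.3 against 0.00314 CPM, where the negative levels are 4 counts and 1 count. Of the S phase list Pcna, the sliding clamp of replication, was at 1580 against 1362 CPM and the histone chaperone gene Nasp at 685 against 565 CPM. Rrm2, a subunit of ribonucleotide reductase, was at 595 against 105 CPM, whereas Ccne2, cyclin E2, was at 0.0843 against 6.01 CPM with reads in 2 cells of each group.

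The genes most like each lamin over all 33 cells were found by Spearman's rho among 9651 genes with reads in at least 10 cells. Those nearest to Lmnb2 were Ckap2, of spindle microtubules (0.83), the centromere gene Cenpn (0.83), the spindle gene Spag5 (0.82), Hirip3 (0.81) and Iqgap3 (0.81), against a median over all genes of 0.11. Each was read in 10 of 10 E14.5 positive, 3 or 4 of 11 E14.5 negative and at most 1 P19 cell of each group. Nearest to Lmnb1 were Tuba1a, an alpha tubulin (0.78), Cdk1 (0.78), the transcription factor Rfx3 (0.78), Clic1 (0.77) and Birc5, the gene of survivin (0.77), against a median of 0.14. Tuba1a was at 3196 and 3098 CPM in E14.5 positive and negative cells and at 66.5 and 87.5 CPM at P19, so it followed age more than the reporter.

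Nearest to Lmna were Rap1gap2 (0.77), Plekhb2 (0.74), Rilpl1 (0.74), Spsb1 (0.74) and Jam2, a junctional adhesion molecule (0.72), with a median over all genes of 0.01. Rilpl1 was at 20.8, 92.2, 446 and 592 CPM in the 4 groups, in the order of Lmna. Lmnb1 was 919th in likeness to Lmnb2 (0.44), and Lmna had a rho of -0.32 with Lmnb2 and -0.21 with Lmnb1. All G2/M genes (25 of 25) had a rho above 0 with Lmnb2 and with Lmnb1 and none with Lmna, against 64.4%, 64.6% and 50.5% of all genes. These relations over 33 cells mostly follow the 4 groups. Of the 5 nearest genes 1 for Lmnb2, 0 for Lmnb1 and 0 for Lmna stayed among the 5 nearest when the 21 E14.5 cells alone were used. With Pearson's r of log2(CPM + 1) over the 33 cells these numbers were 0, 1 and 2.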

How the data were processed

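The deposited table held raw counts of reads for 20728 genes in 33 single cells, and the authors made it with CASAVA 1.8.2, STAR 2.4.0j and HTSeq 0.6.1p1 on mm10, per the submitters' processing notes. For strand settings, mates and duplicates the entry is: not given in the sources used here. Every column was used, and each cell took its group from the labels. The summed counts of a group over its summed total gave a CPM, and log2 ratios of these made 4 comparisons. Levels have exact Poisson and ratios conditional binomial 95% intervals, which cover counting error only. Shares of cells have Clopper-Pearson 95% intervals, which take cells as independent draws although their animals and litters are not known. A group at 0 was taken at 3 counts, given as a bound, and the 95% interval of such a ratio reached nearer 0 than the bound. Shares of genes at least 2-fold apart are over genes with at least 10 counts in both groups together. Levels per kb used GENCODE M21 exons, and promoter windows came from RefSeq.

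Of each list the text names the 2 most abundant members and the 2 of largest ratio at E14.5, every member of lists of up to 6 genes, and of all genes the 5 nearest to each lamin with at least 100 counts, without predicted, clone or pseudogene names. Syne3 and Hba-a1 were not found. The lamins, lists, tests and alternatives were chosen with earlier results of these data known. Alternatives were the mean over cells, log2(CPM + 1), TMM factors (edgeR 4.0.16), size factors (DESeq2 1.42.0), totals that leave out each group's 10 most abundant genes, thinning to 7.80 M counts, other count minimums and floors, and leaving out cells. Leaving out E14.5 negative cells 1 and 3 was added after seeing the data. Python 3.11.15, numpy 2.4.6, pandas 2.3.3, scipy 1.17.1, matplotlib 3.10.9 and R 4.3.3 were used, and the ratio was tested on simulated data.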

Additional observations from a re-analysis of the deposited data

Results flagged for a closer look

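In 5 of the 8 sets of 4 to 10 cells tested, 1 cell lay far from the others of its group by Dixon's criterion, which chance alone meets in about 1 of 20 sets of normally distributed values. Levels here were skewed and often 0, so chance can meet it more often, and with 3 of 4 P19 negative cells at 0 for Lmnb2 the remaining cell met it whatever its value. 4 of these were cells of P19, 3 of them for a B-type lamin. For Lmnb2 they were E14.5 positive cell 4 at 26.6 CPM with the next cell at 12.0, P19 positive cell 3 at 2.16 CPM with the next at 0.0543, and P19 negative cell 1 at 1.45 CPM with the others at 0. For Lmnb1 it was P19 positive cell 6 at 4.22 CPM, above the next cell at 1.30. For Lmna it was P19 positive cell 5 at 70.0 CPM, with the next at 36.8. Groups of 11 cells were not tested.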

How the results depend on the processing

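No paired analysis was possible because each group counted as 1 sample and no result came from a test. Of 110 recomputed lamin ratios and co-detection counts, 90 moved by less than 1 SD between cells (log2(CPM + 1)) or stayed in the Clopper-Pearson interval, 19 moved further and 1 reversed. Of 198 values with 1 cell left out, 190 moved by less than 1 SD. The values that moved further or reversed are given here as log2 ratios. The SD was wide: at E14.5 it was 1.99 for Lmnb1 and 1.91 for Lmna, beside ratios of 1.44 and -1.16. Lmna at -0.14, without E14.5 negative cells 5 and 8, thus counted among the values within 1 SD. The counts above therefore do not show that the ratios are stable.

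As the difference of mean log2(CPM + 1), a scale that holds low values near 0, Lmnb2 was at 2.04 at E14.5, at -1.99 between positive cells and at 0.15 between negative cells, and Lmnb1 was at 0.46 at P19 and at -2.40 between negative cells. With cells thinned, Lmnb2 was at 0.50 at P19 and at 0.14 between negative cells, and the bounds of Lmnb1 were 2.81 and -6.82. A floor of 1 count put the P19 bound of Lmnb1 at 7.03. E14.5 titles 1 to 10 gave Lmnb2 9.07.

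Without the P19 cells of high Fabp4, Lmnb2 was at 4.83 (bound) at P19, at -2.79 between positive cells and reversed to -2.42 (bound) between negative cells, and Lmnb1 was at -10.27 between positive cells. Leaving out each cell, Lmnb2 ran from 4.81 to 7.50 at E14.5, from -6.28 to 3.47 at P19, from -10.18 to -3.76 between positive cells and from -2.42 to 3.60 between negative cells. Lmnb1 ran from 3.76 to 5.71 at P19 and from -6.61 to -4.16 between positive cells. All 3 lamins met in 1 (5 counts) or 0 (1 CPM) E14.5 negative cells in place of 4, and in 0 P19 positive cells in place of 1 at 5 counts, at 1 CPM and after thinning. The causes of these moves were not tested. Lmna ratios all kept their sign, from -1.83 to -0.14 at E14.5. For the cells at 0, the level given for 3 counts reflects depth alone. Loss of a transcript before sequencing was not measured, so a 0 does not show that the gene was silent.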
